A study of Drosophila melanogaster with 4 samples.

Results

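The interior of arm 2L, the left arm of Drosophila melanogaster chromosome 2, held 1617 KDM4A-enriched regions in ChIP replicate 1, 863 in ChIP replicate 2 and 1485 in the combined list of the series. These were 14.1% of the 11489 regions of replicate 1, 14.9% of the 5780 of replicate 2 and 13.5% of the 11016 of the combined list. Members were the rows typed as regions of significant enrichment on sequence 2L on FlyBase release 5 whose midpoint lay more than 1 Mb from the telomere end and no closer than 2 Mb to the centromere end of the sequence. The interior so defined ends at 21011544 and spans 20.01 Mb. At the telomere side the last region outside was 2L 921278 to 922694 (score 0.694) in replicate 1, and the first inside was 2L 1005774 to 1007645 (score 0.412). At the centromere side the last region inside was 2L 21008268 to 21010004 (score 0.517) and the first outside 2L 21017872 to 21021273 (score 0.923).

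Chromatin of whole wild-type larvae of the Oregon-R strain in the 3rd instar was precipitated with antibody Q2541, a rabbit polyclonal to JMJD2A/KDM4A, and sequenced (ChIP-seq). The series had 4 samples, 2 of precipitated DNA and 2 of input DNA, numbered as replicates in their titles. The free-text description of ChIP replicate 2 names input DNA and that of input replicate 1 opens with ChIP DNA, but titles and source names agree for all 4 samples and set the groups. Region lists of the input libraries were not analysed here. Nothing in the labels says whether the replicates came from separate collections of larvae, so their differences may be technical. Whole larvae hold many tissues, so more cells with KDM4A at a place and more KDM4A per cell cannot be told apart.

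KDM4A is a demethylase of the JmjC family, enzymes that use iron and 2-oxoglutarate to take methyl groups off lysines of histones. Its substrates include the histone H3 lysine that is methylated along the bodies of transcribed genes. In Drosophila it also binds heterochromatin protein HP1a, which is concentrated around the centromeres and on chromosome 4. The interior of 2L is mostly euchromatin, the gene-rich and less compacted part of the arm. Gene positions of release 5 were not used here, so regions are given by position and no gene is named.

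KDM4A regions were spread over the whole interior and were more numerous in replicate 1. Covered bases came to 21.9% of the interior in replicate 1 and 11.9% in replicate 2 (mean 16.9% ± 7.08, SD, n = 2). The combined list covered 20.5%. Replicate 1 had 80.8 regions per Mb and replicate 2 had 43.1 (mean 62.0 ± 26.6, SD, n = 2). Replicate 2 thus covered 54.3% as many bases as replicate 1. The lists hold no read totals. Depth is therefore unknown and was not corrected for. With 2 replicates of 1 group analysed, no test across samples was made.

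Most regions were short. The median width was 2151 bp for replicate 1 (10th to 90th percentile 1410 to 4537 bp), 2282 bp in replicate 2 (1612 to 4221 bp) and 2167 bp in the combined list (1144 to 4819 bp). The narrowest regions were 1301, 1305 and 1001 bp wide in these lists, and the widest 19295, 14363 and 45517 bp. Regions over 10 kb numbered 13, 5 and 12, and held 3.76%, 2.68% and 4.69% of the summed region width. Regions of 2 to 5 kb held most of that width, 54.0% in replicate 1 and 66.2% in replicate 2. Each region carries the authors' enrichment score, whose scale the lists do not name, so scores rank regions within a list and are not compared between lists. Width and score rose together over each whole list, but not among narrow regions. Spearman's rho between width and score was 0.66 (1617 regions) for replicate 1, 0.74 (863) for replicate 2 and 0.62 (1485) for the combined list. Among regions under 2 kb it was -0.03 (658 regions), -0.03 (239) and -0.44 (631). Both quantities come from the same reads in a list, so this is a description.

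The covered share varied over short distances. In 200 full bins of 100 kb, counted from the telomere-side bound, the covered share of replicate 1 ran from 0 to 87.8%, with a median of 18.9% and quartiles of 9.06% and 33.8%. In replicate 2 it ran from 0 to 62.7%, with a median of 9.17% and quartiles of 2.52% and 19.1%. A bin held 0 to 19 regions in replicate 1 (median 8) and 0 to 18 in replicate 2 (median 4). The 20 most covered bins held 23.7% of all covered bases in replicate 1 and 28.5% in replicate 2. The 100 less covered bins held 21.4% and 14.9%. Covered share in a bin correlated weakly with that in the next bin (r = 0.26 in replicate 1 and 0.28 in replicate 2 over the 200 bins) and hardly with that 2 bins away (0.036 and 0.044). Neighbouring bins come from 1 library and can share a region, so no p is given.

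**Figure D1:**
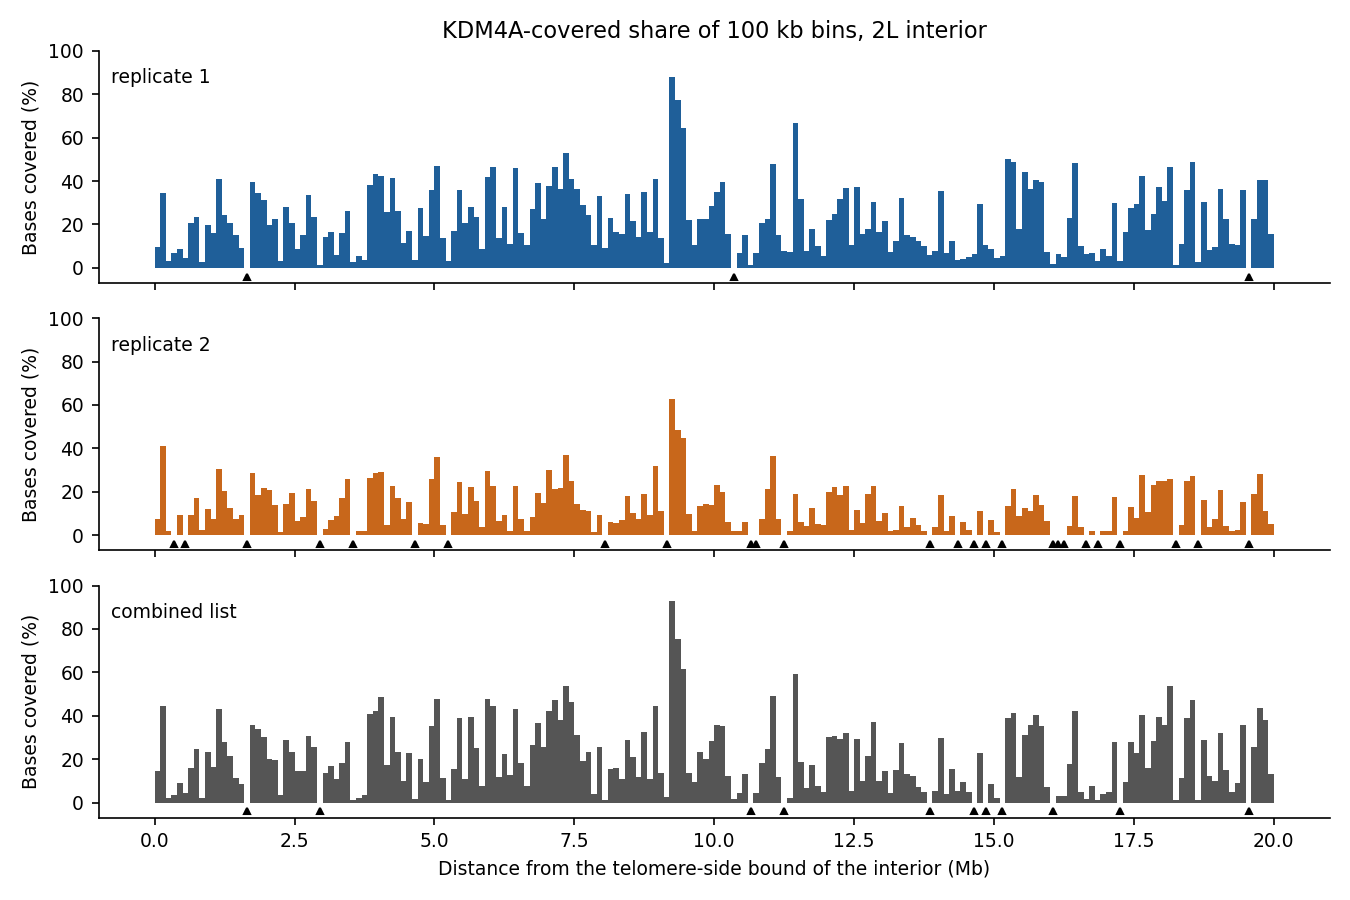
Share of bases inside KDM4A regions (y axis, %) in 200 bins of 100 kb against distance from the telomere-side bound of the interior (x axis, Mb), in replicate 1, replicate 2 and the combined list. Triangles mark bins with no covered base (3, 26 and 11 bins). The highest bar of each panel is the same bin, at 87.8% (replicate 1), 62.7% (replicate 2) and 93.0% (combined list).

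Bins rich in KDM4A in one replicate tended to be rich in the other. Covered shares of the 200 bins correlated between replicates with r = 0.87 and rho = 0.89. Replicate 1 had the higher share in 190 bins, replicate 2 in 8, and 2 bins had none in either. A bin was called dense when its share lay at or above the 90th percentile of its replicate (41.3% in replicate 1 and 25.7% in replicate 2). It was called sparse at or below the 10th percentile (4.46% and 0). Each replicate had 20 dense bins, and 12 were dense in both. Replicate 1 had 20 sparse bins and replicate 2 had 26, all of them empty, and 14 were sparse in both. Dense in 1 replicate only were 8 bins of each. Replicate 1 was also cut to its 5780 best-scoring regions over all chromosomes, as many as replicate 2 has. That left 668 in the interior, against 863 of replicate 2, and 7 bins were then dense and 8 sparse in both. No bin was dense in one replicate and sparse in the other. The combined list also ranked 10 of the 12 as dense and 12 of the 14 as sparse. These bins are chosen on their shares, so their levels are a description.

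**Figure D2:**
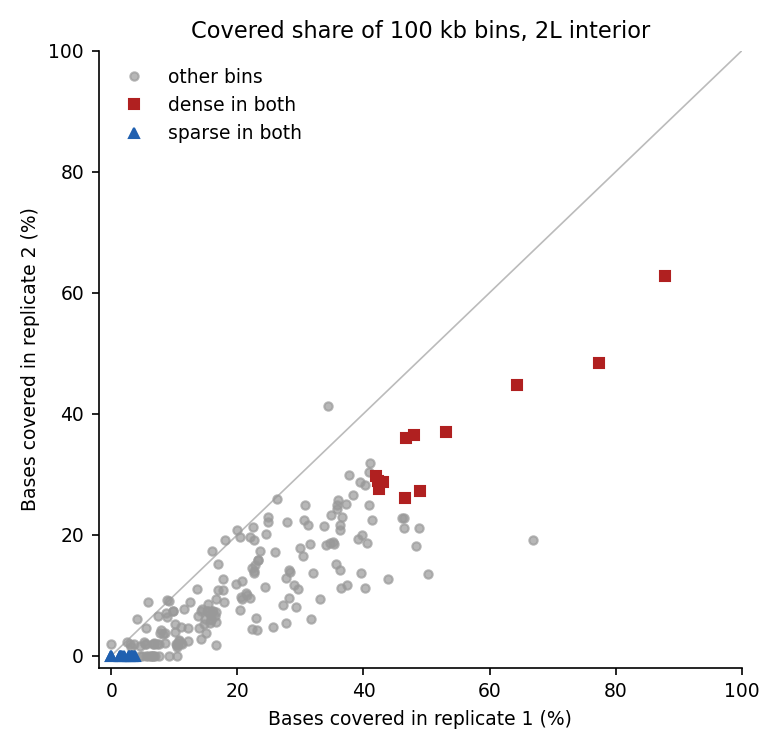
Covered share of each 100 kb bin in replicate 1 (x axis, %) against replicate 2 (y axis, %), with the line of equal shares. Red squares are the 12 bins dense in both replicates and blue triangles the 14 sparse in both. Nearly all points (190 of 200) lie below the line.

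Of the 12 bins dense in both replicates, 5 formed 2 stretches of adjacent bins and 7 stood alone. The longer stretch was 2L 10200001 to 10500000. Its 3 bins were also the 3 densest of the interior by the mean of the replicates, at 75.3% ± 17.7, 62.8% ± 20.5 and 54.6% ± 13.9 (SD, n = 2). Over the 300 kb, regions covered 76.5% in replicate 1 (42 regions), 51.9% in replicate 2 (43 regions) and 76.6% in the combined list (38 regions). The stretch was chosen by covered share, which favours wide and numerous regions. Its bins held 13, 12 and 17 regions in replicate 1, where the highest count of any bin was 19. In replicate 2 they held 18, 15 and 10, and 18 was the highest count. Regions here were wide. Their median width was 4128 bp in replicate 1 against 2142 bp in the rest of the interior, and 2771 bp against 2266 bp in replicate 2. The stretch held 5 of the 13 regions over 10 kb of replicate 1 and 2 of the 5 of replicate 2. The replicates shared 143 kb there, which was 92.3% of the bases of replicate 2 and 62.7% of those of replicate 1, a Jaccard index (shared over joint bases) of 59.6%. The shorter stretch, 2L 4900001 to 5100000, was covered to 42.7% in replicate 1 (27 regions), 28.8% in replicate 2 (23 regions) and 45.5% in the combined list. Its regions had median widths of 2971 bp and 2264 bp, and none exceeded 10 kb.

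The long stretch began abruptly. The bin before it, 2L 10100001 to 10200000, was covered to 2.06% in replicate 1 and had no region in replicate 2. The rise to 87.8% and 62.7% in the next bin was the largest step between neighbouring bins of the interior by the mean of the replicates. From 10064951 to 10197070 neither replicate had a region, a gap of 132 kb, and the combined list had only 2L 10142356 to 10143816 (score 0.475) wholly inside it. The first region after this gap, 2L 10197071 to 10199032 in replicate 1, opened the largest cluster of that replicate. On the other side the fall was less steep. Replicate 1 went from 64.4% to 22.0% covered and replicate 2 from 44.8% to 9.58%.

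**Figure D3:**
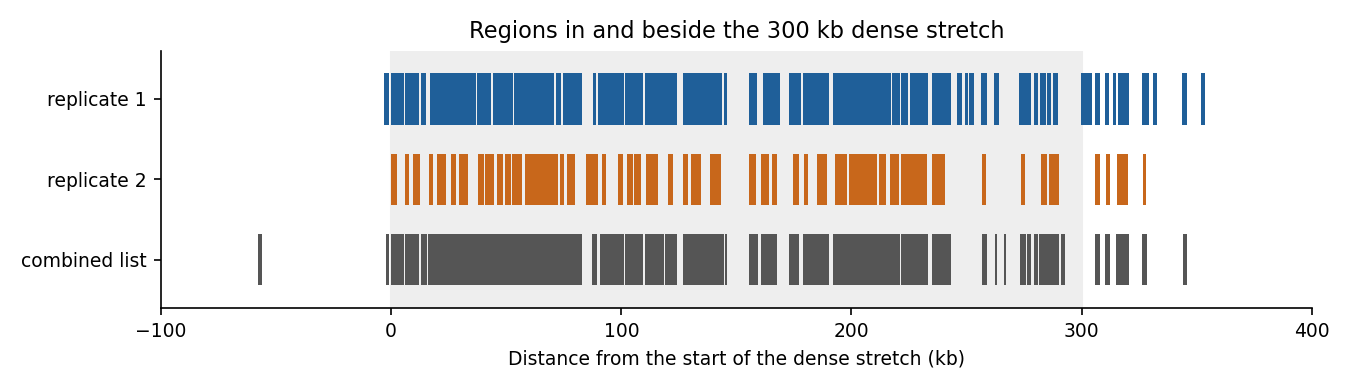
Regions of replicate 1, replicate 2 and the combined list drawn to scale against distance from the start of the 300 kb dense stretch (x axis, kb), with the stretch shaded. The 100 kb before it hold 1 isolated combined region and the start of a cluster, and the stretch itself holds 42, 43 and 38 regions.

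Other sharp edges lay at single bins. Bin 2L 19100001 to 19200000 was covered to 46.5% and 26.1%, and its neighbour 2L 19200001 to 19300000 to 1.36% in replicate 1 and 0 in replicate 2. Bin 2L 19500001 to 19600000 was covered to 49.0% and 27.2%, and the next, 2L 19600001 to 19700000, to 2.80% and 0. In all, 3 of the 14 bins sparse in both replicates directly adjoined a bin dense in both. Beside the long stretch, the densest bins were 2L 8300001 to 8400000, at 53.0% and 37.0% (mean 45.0% ± 11.4, SD, n = 2), and 2L 12400001 to 12500000. The latter was covered to 66.9% in replicate 1 but 19.2% in replicate 2 (mean 43.1% ± 33.8), and ranked 3rd of 200 in replicate 1 and 49th in replicate 2. Its high mean thus rests on replicate 1.

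Wholly empty bins were few in replicate 1. It had 3, and 2 of these, 2L 2600001 to 2700000 and 2L 20500001 to 20600000, were empty in all 3 lists. The remaining one, 2L 11300001 to 11400000, had 1 region in replicate 2 and 1 in the combined list. The other 3 of the 5 sparsest bins, 2L 19200001 to 19300000, 2L 3900001 to 4000000 and 2L 11600001 to 11700000, each had 1 region in replicate 1 (1.36%, 1.42% and 1.48% covered) and none in replicate 2. Replicate 2 had 26 empty bins, of which 24 held some KDM4A in replicate 1. Of these, 5 formed 2 stretches of adjacent bins and the others stood alone. The stretches were 2L 11600001 to 11800000, where replicate 1 had 4 regions, and 2L 17000001 to 17300000, where replicate 1 had 7. No 2 adjacent bins were sparse in both replicates.

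Spacing between neighbouring regions was uneven. The median gap was 3.31 kb in replicate 1, 5.03 kb in replicate 2 and 2.71 kb in the combined list, but 10% of gaps exceeded 23.4, 56.0 and 28.0 kb. Gaps over 100 kb numbered 18 (replicate 1), 43 (replicate 2) and 26 (combined list). When the regions of both replicates were merged, the longest gap was 2L 17007807 to 17167453 (160 kb). The combined list had a single 1015 bp region inside it, 2L 17130154 to 17131168. The next was 2L 20495754 to 20638060 (142 kb), with no combined region. The gap before the long dense stretch ranked 3rd. Those at 2L 1753214 to 1883107 (129.9 kb) and 2L 16050702 to 16179177 (128 kb) followed, each touched by a combined region at its edge only.

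The longest gap of each single list held regions of at least 1 other list. In replicate 2 it was 2L 16911238 to 17383072 (472 kb). Replicate 1 had 15 regions there, up to 3416 bp wide and with scores up to 1.92, which covered 5.67% of it, and the combined list had 11. In the combined list it was 2L 14745147 to 14972045 (227 kb), where replicate 1 had 8 regions and replicate 2 none. In replicate 1 it was 2L 11282863 to 11443271 (160 kb), with 1 region of 1867 bp in replicate 2.

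Neighbouring regions often lay close together. Of all gaps, 38.7% (replicate 1), 28.8% (replicate 2) and 43.3% (combined) were of at most 2 kb, and gaps of at most 100 bp 2.91%, 1.74% and 3.77%. A cluster was taken as 3 or more regions with gaps of at most 2 kb. Replicate 1 had 138 clusters with 34.3% of its regions, and replicate 2 had 59 with 23.9% (mean 29.1%). The combined list had 155 with 42.4%. Regions with no neighbour within 2 kb made up 39.9%, 52.7% and 35.1%. Clusters spanned a median of 12.6 kb in replicate 1 and 11.3 kb in replicate 2. All 59 replicate 2 clusters touched a replicate 1 region (exact 95% interval 93.9% to 100%), and 42 touched a replicate 1 cluster (71.2%, 57.9 to 82.2). Conversely 41 of 138 replicate 1 clusters touched a replicate 2 cluster (29.7%, 22.2 to 38.1). Since 92.8% of single replicate 2 regions touched replicate 1, a group of 3 or more had little room to miss it. The touching of all 59 clusters is therefore no separate sign of agreement. Shares of clusters over all chromosomes were not computed.

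The largest cluster of replicate 2 lay in the long dense stretch, and that of replicate 1 began just before it. In replicate 1 it was 2L 10197071 to 10282909, with 12 regions over 85.8 kb, where replicate 2 had 15 regions and covered 62.99%. In replicate 2 it was 2L 10237831 to 10279867, with 8 regions over 42.0 kb. Replicate 1 split this span into 5 regions and the combined list held it in 1. In the combined list the cluster with most regions was elsewhere, 2L 18935274 to 18981404, with 12 regions over 46.1 kb. There replicate 1 had 9 regions covering 64.9% and replicate 2 had 7 covering 49.0%. The lists thus divided the same span into different numbers of regions.

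At the scale of 1 Mb the covered share also varied. Over 20 windows its range was 11.95% to 35.1% for replicate 1 (median 22.9%) and 3.05% to 22.0% for replicate 2 (median 11.8%). The highest window in both was 2L 10000001 to 11000000 and the lowest in both 2L 17000001 to 18000000. Replicate 2 covered 75.2% as many bases as replicate 1 in the window nearest the telomere and 25.5% as many in 2L 17000001 to 18000000. Up to 11005772 replicate 1 covered 23.9% and replicate 2 covered 14.3%, and from 11005773 to 21011544 they covered 19.9% and 9.53%. Replicate 2 as a share of replicate 1 was 59.7% on the telomere side and 47.8% on the centromere side. Empty bins of replicate 2 numbered 9 and 17 on these sides of position 11000000. Read depth is unknown, and its part in this difference was not tested.

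Most replicate 2 regions recurred in the longer list of replicate 1, and about as many replicate 1 regions were found again as not. At an overlap of at least 1 bp, replicate 1 touched 801 of 863 replicate 2 regions (92.8%, exact Clopper-Pearson 95% interval 90.9 to 94.4), against 91.8% over all chromosomes. Replicate 2 touched 802 of 1617 replicate 1 regions (49.6%, 47.1 to 52.1), against 45.8% over all chromosomes. These shares changed when replicate 1 was cut by score, which alters both the length of its list and the scores in it. The part of length alone was not tested. Its 5780 best-scoring regions over all chromosomes, as many as replicate 2 has, included 668 in the interior, against 863 of replicate 2. With these, 58.3% of replicate 2 and 69.5% of the remaining replicate 1 regions were found. With 50% reciprocal overlap the shares were 70.8% (67.6 to 73.8) and 37.8% (35.4 to 40.2), against 67.8% and 34.1% over all chromosomes. Differences of these shares from those over all chromosomes, which include the arm itself, were not tested. Bases in both replicates came to 2.01 Mb and bases in either to 4.75 Mb, so the Jaccard index was 42.3%. The shared bases were 84.5% of replicate 2 and 45.9% of replicate 1. Over 198 bins with any covered base, the Jaccard index had a median of 39.2% (quartiles 23.2% and 50.0%), and it was 0 in 27. The intervals cover counting error only, and the shares carry no correction for chance overlap, which grows with the density and width of regions.

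Matched regions had similar midpoints, but their edges often differed. Pairs in which each region touched only the other numbered 599, or 69.4% of replicate 2 regions. Their midpoints lay a median of 274 bp apart (quartiles 83.3 and 624 bp), and 275 pairs (45.9%) had midpoints within 250 bp. Paired regions must overlap, which limits how far apart their midpoints can lie. Their median widths were 2661 bp in replicate 1 and 2278 bp in replicate 2. The start in replicate 2 lay a median of 50 bp after that in replicate 1, and the end 50 bp before it. In these signed values shifts in opposite directions cancel. Without sign, starts differed by a median of 235 bp (quartiles 77.5 and 745.5 bp) and ends by 239 bp (72 and 744.5 bp). Replicate 2 regions were the narrower in most pairs, with a median width ratio of 0.897, and 206 pairs (34.4%) were wider in replicate 2. Scores ranked alike within pairs (rho = 0.69 over 599 pairs), and so did widths (rho = 0.51). A further 79 replicate 1 regions touched 2 or more of replicate 2, and 80 replicate 2 regions touched 2 or more of replicate 1. At most, 4 regions met 1 of the other list. One such case was 2L 10244276 to 10252942 in replicate 1, within the long dense stretch, and another 2L 13376895 to 13383974 in replicate 2.

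Recovery rose with width in every list. Of replicate 1 regions, 8.33% of the 324 narrowest (1301 to 1558 bp) were found in replicate 2 (5.56 to 11.9), against 83.3% of the 323 widest (78.8 to 87.2). The change was steep near 2 kb. Of replicate 1 regions under 2 kb, 120 of 658 were found (18.2%, 15.4 to 21.4), and of those of 2 kb or more 682 of 959 (71.1%, 68.1 to 74.0). In the combined list 57 of 631 regions under 2 kb were found in both replicates (9.03%, 6.91 to 11.5), and 695 of 854 wider ones (81.4%, 78.6 to 83.9). Replicate 2 regions were found in replicate 1 in 188 of 239 cases under 2 kb (78.7%, 72.9 to 83.7) and 613 of 624 at 2 kb or more (98.2%, 96.9 to 99.1). A wider region has more room to touch another, and no correction was made for this. The same shares over all chromosomes were not computed, here or for the classes of score, width and density that follow.

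Recovery rose with score in replicate 2 and the combined list, but not evenly in replicate 1. With each list split into 5 classes by score, 144 of the 173 lowest-scoring replicate 2 regions were found in replicate 1 (83.2%, 76.8 to 88.5), and all 172 in each of the 2 highest classes. In the combined list the share found in both replicates was 17.5% for the 297 lowest scores and 97.0% for the 297 highest. In replicate 1, 41.7% of the 324 lowest-scoring regions were found in replicate 2 (36.2 to 47.2), then 32.4%, 34.1% and 54.2% in the following classes, and 85.8% of the 323 highest-scoring (81.5 to 89.4).

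Among narrow replicate 1 regions the order was reversed. Regions of 1301 to 1853 bp were found in replicate 2 in 48 of 180 cases when they had the lowest scores (26.7%, 20.4 to 33.8), in 20 of 180 with middle scores (11.1%, 6.92 to 16.6) and in 3 of 179 with the highest scores (1.68%, 0.347 to 4.82). Among regions of 1856 to 2646 bp the shares were 65.6%, 38.9% and 68.2%, with no steady rise or fall. Among regions of 2651 bp or more the shares were 68.3%, 74.4% and 91.6%. The lowest of the high scores in the narrow class was 0.662. High-scoring narrow regions of replicate 1 had the lowest share of the 9 classes. That share was 7.82% when regions within 1 kb counted as found, and 12.6% when the narrower 50% of regions were taken as narrow. The difference from other classes was not tested.

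**Figure D4:**
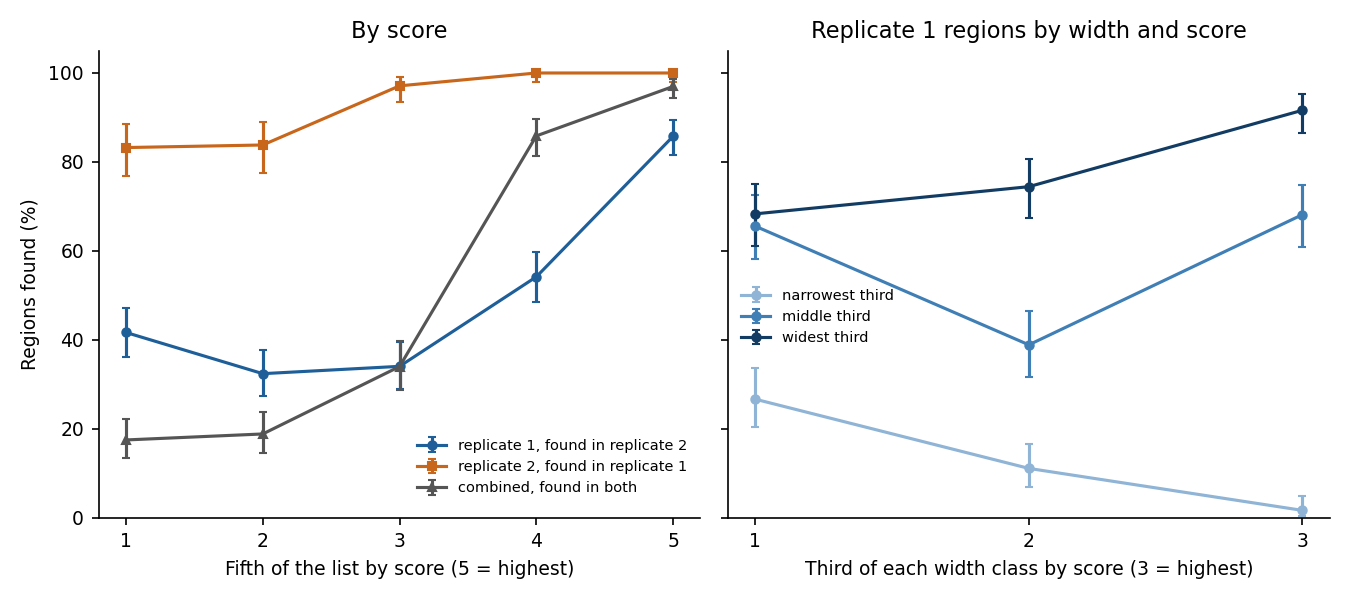
Share of regions found in the other replicate, or in both for the combined list (y axis, %), in 5 classes of rising score (left), and for replicate 1 by width class and score (right). Bars are exact 95% intervals for counting error. On the right the narrowest regions fall from 26.7% to 1.68% as their score rises, and the widest rise from 68.3% to 91.6%. Those of middle width go from 65.6% to 38.9% and then to 68.2%.

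Regions without a partner differed between the replicates in their distance to the next one. Of the 62 replicate 2 regions not found in replicate 1, 25 (40.3%) lay within 1000 bp of a replicate 1 region, with a median distance of 1.61 kb. None exceeded 2920 bp in width, and their median width was 1756 bp against 2328 bp for those found. The best-scoring of them, 2L 13816561 to 13818764, ranked 471st of 863 and lay 0.102 kb from a replicate 1 region. The 815 replicate 1 regions not found in replicate 2 lay farther from the next one, at a median of 6.71 kb, and 112 (13.7%) lay within 1000 bp. Their median width was 1737 bp against 2733 bp for those found. The best-scoring was 2L 20197199 to 20198566, 1368 bp wide, which ranked 20th of 1617 and lay 23.6 kb from the nearest replicate 2 region. The combined list covered 76.8% of it and 58.9% of the best-scoring unmatched region of replicate 2.

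Recovery also rose with the density of the surroundings. In the 50 bins least covered in replicate 1 (up to 8.83%), 32 of 124 replicate 1 regions were found in replicate 2 (25.8%, 18.4 to 34.4). In the 50 most covered bins (from 34.0%), 392 of 687 were (57.1%, 53.3 to 60.8). Regions in the sparse bins were also narrower, with a median of 1749 bp against 2291 bp, while median scores were alike (0.739 and 0.786). Replicate 2 covered 1.87% of the sparse and 24.9% of the dense bins, so chance overlap differs between them as well. Bins of other chromosomes were not split in this way.

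About as many combined regions had a partner in both replicates as lacked one in at least 1. Of 1485, 752 were found in both (50.6%, 48.1 to 53.2; 44.6% over all chromosomes) and 520 in replicate 1 alone (35.0%, 32.6 to 37.5; 38.8% over all chromosomes). A further 51 were found in replicate 2 alone (3.43%, 2.57 to 4.49; 3.72% over all chromosomes) and 162 in neither (10.9%, 9.37 to 12.6; 12.8% over all chromosomes). Median widths were 3067, 1700, 1809 and 1185 bp in these classes. Conversely the combined list touched 97.5% of replicate 2 regions and 79.2% of those of replicate 1, shares that were not computed over all chromosomes. It belongs to the same series and how it was made is not given in the sources used here, so these overlaps are no independent check.

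**Figure D5:**
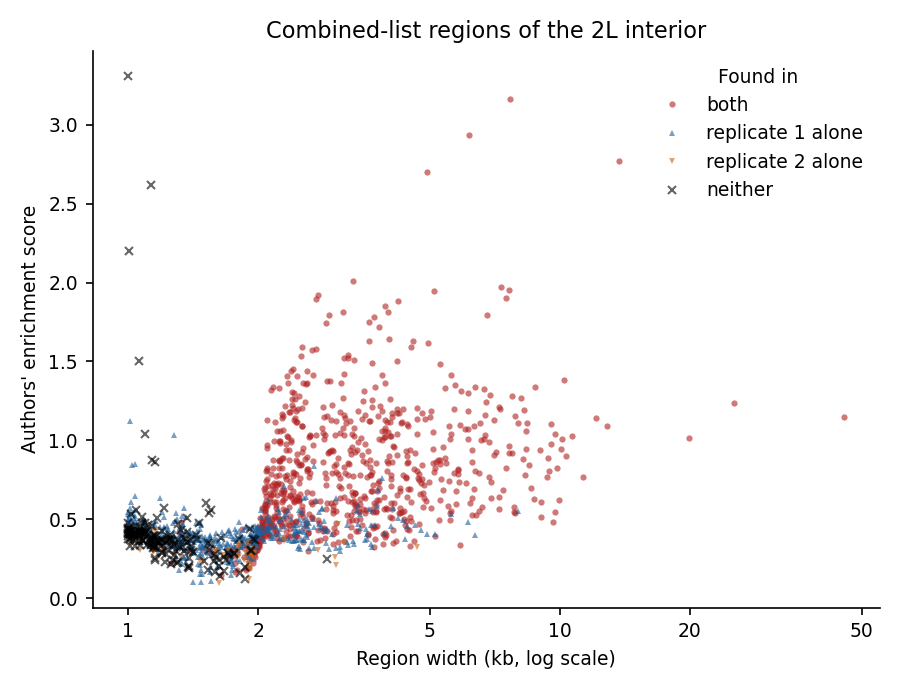
Width (x axis, kb, log scale) and authors' enrichment score (y axis) of the 1485 combined regions, marked by the replicate lists in which they were found. Regions of 2 kb or more are mostly found in both replicates (695 of 854), and a few narrow regions with scores above 1.5 are found in neither.

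All 10 of the widest combined regions were touched by both replicates, and 4 of them lay in the long dense stretch. The widest was 2L 10237412 to 10282928 (45.5 kb, score 1.15). Replicate 1 covered it with 5 regions, of which the widest was 17274 bp (score 1.89), and replicate 2 with 8, of which the widest was 14363 bp (score 0.988). The next was 2L 10392192 to 10417446 (25.3 kb, score 1.24), covered to 98.998% by 2 regions in replicate 1 and to 81.8% by 5 in replicate 2. The other 2 of this stretch were 2L 10290582 to 10301228 (10.6 kb) and 2L 10223880 to 10234084 (10.2 kb). Replicate 1 covered each with 1 region to over 99% (99.6% and 99.3%), and replicate 2 with 2 regions to 39.9% and 62.5%.

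Outside the stretch the replicates agreed on some wide regions and not on others. Region 2L 2190780 to 2204478 (13.7 kb, score 2.77) was a single region in each replicate, 2L 2191215 to 2204429 in replicate 1 and 2L 2191021 to 2204504 in replicate 2. Region 2L 13779122 to 13791996 (12.9 kb) was covered to 82.9% by 3 regions in replicate 1 and to 97.7% by 2 in replicate 2, and these 2 of the 10 were covered more fully in replicate 2 than in replicate 1. Region 2L 5970618 to 5990524 (19.9 kb) was covered to 93.9% and 69.9%, and 2L 8360170 to 8372288 (12.1 kb) to 92.7% and 79.8%. In contrast 2L 16241866 to 16253172 (11.3 kb) was whole in replicate 1 but covered to 35.9% by 2 short regions in replicate 2. Region 2L 20414086 to 20424414 (10.3 kb) was covered to 99.7% and 49.0%.

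The strongest regions of the 2 replicates coincided. The highest score of the interior fell at the same place in both, at 2L 12001383 to 12008866 in replicate 1 (score 3.10) and 2L 12001217 to 12015019 in replicate 2 (score 3.21). Replicate 1 had a separate neighbour there, 2L 12009182 to 12015173 (score 2.88, rank 3), and so did the combined list. The second place in replicate 1, 2L 4808270 to 4813111 (score 2.93), ranked 3rd in replicate 2 as 2L 4809161 to 4813046 (score 2.75). The region near 2.19 Mb described above ranked 4th in replicate 1 and 2nd in replicate 2. Beyond these, 2L 5277012 to 5280322 (score 2.01), 2L 15907592 to 15914908 (1.97) and 2L 18942282 to 18949908 (1.95) of the combined list each met 1 region in either replicate. The last of these met 2L 18942797 to 18949871 in replicate 1 and 2L 18942804 to 18949841 in replicate 2.

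The other 3 of the 10 best-scoring combined regions had no partner in either replicate and were all near the minimum width of the list. They were 2L 15718706 to 15719706 (1001 bp, score 3.31, the highest), 2L 20158658 to 20159784 (1127 bp, score 2.62) and 2L 13455866 to 13456870 (1005 bp, score 2.20). The nearest replicate 1 region lay 7.38, 3.93 and 9.12 kb away, and the nearest replicate 2 region 26.3, 9.10 and 9.14 kb. Among combined regions with scores of 1.5 or more, all 35 that were at least 1500 bp wide were found in both replicates, and the 4 narrower ones in neither. Of the 100 best-scoring combined regions, 96 were found in both replicates and 4 in neither.

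The interiors of 3L, 3R and the X, taken with the same margins, gave values of the same order. Covered shares were 23.5%, 21.1% and 23.4% in replicate 1, against 21.9% on 2L, and 12.4%, 12.8% and 12.9% in replicate 2, against 11.9%. Of replicate 1 regions, 49.4% (47.1 to 51.7), 54.7% (52.5 to 57.0) and 53.7% (51.2 to 56.2) were found in replicate 2, against 49.6% (47.1 to 52.1) on 2L. The interval of 2L did not meet that of 3R but met those of 3L and the X. Such intervals cover counting error within 1 pair of libraries only, so this is no test of a difference between arms. Correlations of covered share across bins were 0.84, 0.85 and 0.82, against 0.87. The most covered bin reached 69.0%, 57.8% and 65.8% in replicate 1 and 43.2%, 48.9% and 50.5% in replicate 2, against 87.8% and 62.7% on 2L. The share of bins empty in replicate 2 was 8.84%, 13.3% and 9.28%, against 13.0%. No test of these differences was made.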

How the data were processed

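Bowtie 0.12.7 is named in the submitters' processing notes. Each deposited list gives the authors' regions by start and end on FlyBase release 5, per the file headers, with 1 enrichment score per region. How regions were called, at what threshold, whether the input entered and how the combined list arose is not given in the sources used here. Starts and ends of all 2L regions in the combined list were even numbers (100% of each), while those of the replicate lists were not (48.3% to 51.6%). Regions within a list did not overlap.

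From these lists, members, widths, gaps, covered bases, bins, clusters and overlaps were computed with Python 3.11.15, NumPy 2.4.6 and SciPy 1.17.1. Other bins or windows than the full ones were left out. The interval code was tested on simulated lists. Shares carry exact Clopper-Pearson 95% intervals. No test was made, since 2 ChIP replicates stand without a second group. The members, lists and most measures were chosen with earlier results of these data known. Named were the 10 widest and 10 best-scoring combined regions, the 5 densest and 5 sparsest bins, stretches of adjacent dense or sparse bins, the 5 longest merged gaps and the largest cluster of each list. Other regions, bins, gaps and classes were singled out after their values were seen, among them the strongest replicate regions, the steps between bins, the split at 2 kb and the narrow high-scoring class. A gene table of release 6 was not used, since the lists are on release 5.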

Additional observations from a re-analysis of the deposited data

How the results depend on the processing

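Results were recomputed under 39 alternatives, and 14 stayed within the spread between replicates, the counting interval or 1.5 times a count. This tally does not measure robustness. The 14 include the values with either replicate left out. No tolerance was set for the Jaccard index, the bin correlation or the distance between midpoints, whose alternatives all counted as moved. Leaving out either replicate gave covered shares of 11.9% to 21.9%, 43.1 to 80.8 regions per Mb and 23.9% to 34.3% of regions in clusters, which with 2 values cannot lie outside their SD. Keeping regions at or above the median score of their list, the covered share was 9.66% and regions per Mb 26.9. The share of replicate 2 regions found in replicate 1 was then 85.2%, the Jaccard index 39.6% and the bin correlation 0.79. With only the combined list cut in this way and the replicate lists whole, 87.7% of combined regions were found in both replicates. Cutting replicate 1 to the 5780 best scores over all chromosomes left 668 in the interior, against 863 of replicate 2. Of replicate 2 regions 58.3% were then found, and of replicate 1 regions 69.5%. The Jaccard index was 40.3%, and 7 bins were dense and 8 sparse in both replicates. With 50% reciprocal overlap 70.8% and 37.8% were found, and matched midpoints lay 263 bp apart; 45.8% of combined regions were covered over at least 50% of their width by each replicate. Bin correlations were 0.86 in 50 kb bins, 0.88 in 200 kb bins and 0.82 by region count. Linking gaps of 1 kb and 5 kb put 13.4% and 60.0% of regions in clusters. The following were chosen after seeing the data. Counting regions within 1 kb as found gave 95.7% of replicate 2, 56.5% of replicate 1 and 7.82% of the narrow high-scoring replicate 1 regions, and taking the narrower 50% of regions as narrow gave 12.6% for these. The bin correlation without the long dense stretch was 0.84. The cause of these shifts was not tested. No paired analysis was possible because all lists used here are of 1 group, the ChIP samples, so there is no second group to pair with. Read depth is unknown, and its part in these values was not tested.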

Other observations

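Some bins broke the usual order of the replicates, and were chosen after their values were seen. Replicate 2 covered more than replicate 1 in 8 of the 200 bins, although it covered fewer bases over the interior. The bin 2L 1100001 to 1200000 was covered to 34.3% in replicate 1, where it ranked 49th, and to 41.3% in replicate 2, where it ranked 4th. In the opposite direction, 2L 16200001 to 16300000 was covered to 50.3% in replicate 1 (rank 6) and 13.4% in replicate 2 (rank 77). Next to the dense bin that rested on replicate 1, bin 2L 12500001 to 12600000 was covered to 31.7% in replicate 1 (rank 54) and 6.09% in replicate 2 (rank 128). These differences have no test.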
